A study of Mus musculus with 2 samples.

Results

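The Toll-like receptors and partners described here are 10 genes: the receptors Tlr1, Tlr2, Tlr4, Tlr7 and Tlr9, the receptor homolog Cd180, the small extracellular partners Ly86 and Ly96, the trafficking protein Unc93b1 and the adaptor Myd88. They were chosen by name, out of 31053 genes counted, and were followed in B cells of the mouse heart. The cells came from C57BL6/J mice without a genetic change or treatment, at 2 weeks of age (neonatal, males and females pooled) or 8 weeks (adult, males), and were sorted by flow cytometry as live B cells. Hearts of 6 mice were pooled at each age into 1 droplet library of 3′ cDNA, so that age, mice, sex and library cannot be told apart and no test across samples can be made. Another label of the younger mice reads 15 days. A cell was a droplet with at least 2000 gene UMIs (unique molecular identifiers, each marking 1 captured mRNA molecule), at most 10% mitochondrial UMIs and a UMI of Cd79a, a signaling chain of the B cell receptor. This left 2077 neonatal and 3611 adult cells.

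Toll-like receptors sense microbial molecules. TLR1 pairs with TLR2 to detect bacterial lipopeptides, and TLR4 detects lipopolysaccharide together with MD-2, the product of Ly96, whereas TLR7 and TLR9 detect RNA and DNA inside endosomes, to which UNC93B1 carries them. RP105, the product of Cd180, resembles TLR4 outside the cell, lacks its signaling domain and pairs with MD-1, the product of Ly86. Most of these receptors signal through MyD88, and B cells respond to many of their ligands directly.

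By the GENCODE annotation of GRCm38, Tlr1 (ENSMUSG00000044827) lies on chromosome 5 from 64924679 to 64933563, Tlr2 (ENSMUSG00000027995) on chromosome 3 from 83836272 to 83841767 and Tlr4 (ENSMUSG00000039005) on chromosome 4 from 66827584 to 66930284. Tlr7 (ENSMUSG00000044583) lies on chromosome X from 167304929 to 167330558, and Tlr9 (ENSMUSG00000045322) on chromosome 9 from 106222598 to 106226883. Cd180 (ENSMUSG00000021624) and Ly86 (ENSMUSG00000021423) are both on chromosome 13, from 102693558 to 102739629 and from 37345208 to 37419036. Ly96 (ENSMUSG00000025779) lies on chromosome 1 from 16688051 to 16709611 and Unc93b1 (ENSMUSG00000036908) on chromosome 19 from 3935186 to 3949340. Myd88 (ENSMUSG00000032508), on chromosome 9 from 119335934 to 119341411, overlaps Slc22a14 on the same strand, so the assignment of its UMIs is less certain than that of the other members.

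Promoter windows of RefSeq (GRCm38.p6, from 250 bases before to 50 after an annotated start) were found for 6 of the 10 members. Those of Myd88, Ly86 and Tlr9 are shown because they hold one of the motifs searched on both strands, drawn in capitals: GAAANNGAA, a paired site of interferon regulatory factors (IRF), and ATGCAAAT, the octamer bound by OCT factors, a family that B cells express. Both motifs were chosen after these windows had been read, so their presence here is a description. The Myd88 window is chr9:119339969-119340268 on the minus strand, the Ly86 window chr13:37345095-37345394 on the plus strand and the Tlr9 window chr9:106222348-106222647 on the plus strand.
Myd88: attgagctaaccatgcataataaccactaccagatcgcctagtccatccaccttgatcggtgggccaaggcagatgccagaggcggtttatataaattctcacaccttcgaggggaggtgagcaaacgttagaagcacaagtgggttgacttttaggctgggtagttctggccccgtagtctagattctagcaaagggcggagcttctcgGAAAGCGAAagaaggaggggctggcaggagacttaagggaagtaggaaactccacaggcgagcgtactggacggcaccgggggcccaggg
Ly86: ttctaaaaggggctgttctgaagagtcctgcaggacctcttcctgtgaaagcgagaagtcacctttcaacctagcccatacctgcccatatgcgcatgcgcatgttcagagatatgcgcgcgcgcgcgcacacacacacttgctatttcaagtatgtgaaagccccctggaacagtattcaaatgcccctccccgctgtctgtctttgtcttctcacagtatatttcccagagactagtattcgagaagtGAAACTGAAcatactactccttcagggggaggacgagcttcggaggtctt
Tlr9: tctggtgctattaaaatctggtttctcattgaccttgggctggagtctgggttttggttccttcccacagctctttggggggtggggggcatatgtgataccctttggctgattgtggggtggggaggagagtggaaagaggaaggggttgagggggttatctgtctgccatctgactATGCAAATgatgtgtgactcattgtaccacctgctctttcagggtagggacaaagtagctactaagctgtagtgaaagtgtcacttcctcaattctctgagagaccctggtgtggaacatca
The IRF pair begins 40 bases before the RefSeq start of Myd88 and at the RefSeq start of Ly86, and the octamer 72 bases before that of Tlr9. RefSeq and GENCODE place the starts of Myd88 and Ly86 differently. The Myd88 window lies wholly inside the gene span given above, and the site in Ly86 lies after the GENCODE start. Over 32851 windows of the same length, 8.56% held the IRF pair and 1.74% the octamer. The pair in Myd88 is followed by a further A, a stricter form held by 3.44% of windows, and the pair in Ly86 is followed by C. No window of Tlr1, Tlr2 or Cd180 held either run of letters. Neither did the windows of Tlr3 and Irf7, genes outside the members that are described below.

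The cells were B cells by their transcripts: a UMI of Cd79b, the second signaling chain of the B cell receptor, was present in 99.5% of neonatal and 99.4% of adult cells, and one of Ms4a1, which encodes CD20, in 97.4% and 95.6%. They had a median of 6000 UMIs (neonatal) and 6131 UMIs (adult), and 16403180 and 34623240 UMIs in all. Levels are the UMIs of a gene summed over cells and scaled to counts per 1000000 UMIs of those cells (CPM), with exact Poisson 95% intervals; ratios carry exact conditional binomial intervals, and all intervals cover counting error only. Across 20 markers of macrophages, neutrophils and dendritic cells, the 8 macrophage markers summed to 90.9 CPM in the neonatal and 16.5 CPM in the adult cells. Retnlg, S100a8, S100a9, Ly6g and Mmp8, markers of neutrophils, were at 0 in the adult cells. The libraries shared 2 cell barcodes, and 110 barcodes had at least 500 UMIs in both. Leaving these out left 2016 neonatal and 3566 adult cells, with ratios between the ages of -1.08 for Tlr2, 0.82 for Tlr4 and -0.20 (-0.47 to 0.06) for Ly96.

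The 10 members fell into 3 ranges of level. Ly86, Unc93b1 and Cd180 were abundant, Tlr1, Tlr7, Myd88 and Ly96 were lower, and Tlr4, Tlr2 and Tlr9 were rare. A 3′ library counts 1 end of each molecule, so CPM is not divided by gene length, but capture differs between genes and the order is that of captured molecules. In adult cells the order was Ly86 (409 CPM, 402 to 416), Unc93b1 (324, 318 to 330), Cd180 (135, 131 to 139), Tlr1 (23.4, 21.8 to 25.1), Tlr7 (16.3, 15 to 17.7), Myd88 (15, 13.8 to 16.4), Ly96 (11.1, 10.1 to 12.3), Tlr4 (3.06, 2.51 to 3.70), Tlr2 (2.02, 1.58 to 2.55) and Tlr9 (1.70, 1.30 to 2.20). The intervals of the neighbours Tlr7 and Myd88 overlapped, as did those of Tlr4 and Tlr2 and those of Tlr2 and Tlr9. In neonatal cells Unc93b1 (362 CPM, 353 to 371) stood above Ly86 (329, 320 to 338), and Tlr2 (4.21, 3.27 to 5.32) above Tlr4 (1.89, 1.28 to 2.68).

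**Figure D1:**
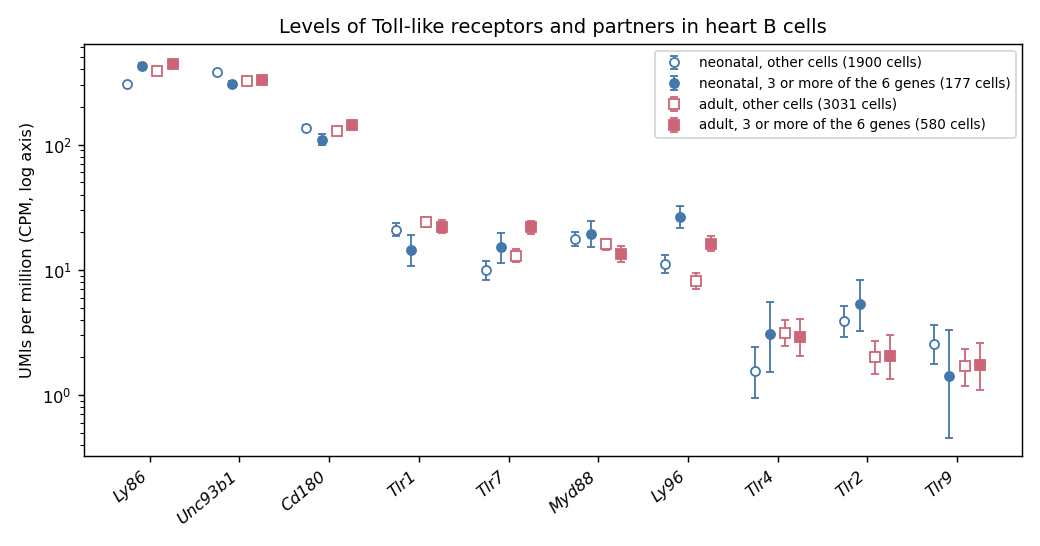
Level of each member in CPM (log axis), with exact Poisson 95% intervals, in neonatal (circles) and adult (squares) cells, split into cells with a UMI of 3 or more of 6 genes (filled) and other cells (open). Ly86, Unc93b1 and Cd180 lie above 100 CPM, and Tlr2, Tlr4 and Tlr9 below 10 CPM in each of the 4 groups.

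The share of cells with a UMI depends on depth, so each cell was also thinned to 2000 UMIs. A UMI of Unc93b1 was then present in 52.4% of neonatal (exact binomial interval 50.3 to 54.6%) and 45.6% of adult cells (43.9 to 47.2%), against 87.6% and 82.6% as sequenced. Ly86 was present in 43.1% (41.0 to 45.3%) and 52.0% (50.4 to 53.7%) of thinned cells, and Cd180 in 22.1% (20.4 to 24.0%) and 20.6% (19.3 to 22.0%). The shares of Tlr1 were 3.80% and 4.35%, those of Tlr7 2.07% and 2.49%, and those of Tlr9 0.530% and 0.249%. The sort left no large cell type that should lack these genes. Droplets with fewer than 100 UMIs were used instead for the make-up of free RNA, and 100 free UMIs per cell as sequenced were assumed, not measured. Over the 4 groups, this would give a UMI of any member to at most 1.04% of thinned cells, the value for Unc93b1, and of Tlr9 to at most 0.00537%. Both shares depend on the assumed number.

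The first question was whether the receptors differed between the ages. Against a size rule of 1.5-fold on genes with at least 50 UMIs over both groups, 1 of 10 members was higher in adult cells (Tlr4) and 1 lower (Tlr2). Of 10703 genes, 7.82% were higher and 12.2% lower by this rule, so the members' counts are near the background. The median log2 ratio, adult over neonatal, was -0.06 over the members and -0.13 over all genes tested.

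Tlr2, the lipopeptide receptor, had 69 UMIs and 4.21 CPM in neonatal cells and 70 UMIs and 2.02 CPM in adult cells, a log2 ratio of -1.06 (-1.56 to -0.56). Of the 69 neonatal UMIs, 28 (40.6%) lay in 22 droplets with UMIs of at least 2 of the 20 myeloid markers, where Tlr2 had 67.2 CPM against 2.56 CPM in the other neonatal cells. The same 22 droplets held each of the 46 UMIs of Cd14, a coreceptor of TLR4 that was not among the 20 markers. They also held each of the 113 UMIs of Csf1r, the receptor for macrophage colony-stimulating factor. Of Lyz2, the lysozyme of macrophages and neutrophils, they held 98.5%. Csf1r and Lyz2 were among the markers that chose the droplets, so their shares follow in part from that choice. Of Cd68, another of those markers, the droplets held 54 of 133 UMIs (40.6%). In the adult library 36 such droplets held 3 of 70 Tlr2 UMIs. Without these droplets in both libraries the log2 ratio of Tlr2 was -0.35 (-0.93 to 0.25), and without droplets with a UMI of Lyz2, Csf1r, C1qa or C1qb it was -0.38 (-0.96 to 0.22), both within 1.5-fold. Tlr9 passed the rule when the first set was left out, at a log2 ratio of -0.61.

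Tlr4, the lipopolysaccharide receptor, had 31 UMIs and 1.89 CPM in neonatal and 106 UMIs and 3.06 CPM in adult cells, a log2 ratio of 0.70 (0.11 to 1.32). Its ratio was 0.71 without the droplets with myeloid markers and 0.34 (-0.47 to 1.22) in cells of at least 10000 UMIs. No neonatal cell had more than 1 UMI of Tlr4. Ly96, whose product MD-2 binds TLR4, went the other way, with 14.4 CPM in neonatal and 11.1 CPM in adult cells and a log2 ratio of -0.37 (-0.61 to -0.13). With cells thinned to 2000 UMIs its ratio was -0.93 (-1.5 to -0.36), on 57 neonatal and 52 adult UMIs, which passed 1.5-fold. Without the barcodes found in both libraries it was -0.20, with an interval, given above, that includes equal levels.

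The endosomal receptor Tlr7 had 11.1 CPM (9.54 to 12.8) in neonatal and 16.3 CPM (15 to 17.7) in adult cells, a log2 ratio of 0.56 (0.31 to 0.81) just inside 1.5-fold, which is 0.58 on this scale. Tlr9 had 38 and 59 UMIs, with a log2 ratio of -0.44 (-1.06 to 0.18). Unc93b1, which both receptors need to leave the endoplasmic reticulum, was at -0.16 (-0.21 to -0.12). Scaling by the median of ratios shifted the log2 ratio of every gene by 0.16, which brought Unc93b1 to 0.00 and Tlr7 to 0.72.

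Of the pair that forms the RP105 complex, Ly86 was higher in adult cells by a log2 ratio of 0.31 (0.27 to 0.36), while Cd180, at 131 CPM in neonatal and 135 CPM in adult cells, differed by 0.04 (-0.03 to 0.11). Tlr1 was at 0.26 (0.07 to 0.45) and Myd88 at -0.26 (-0.47 to -0.05). Both were within 1.5-fold.

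**Figure D2:**
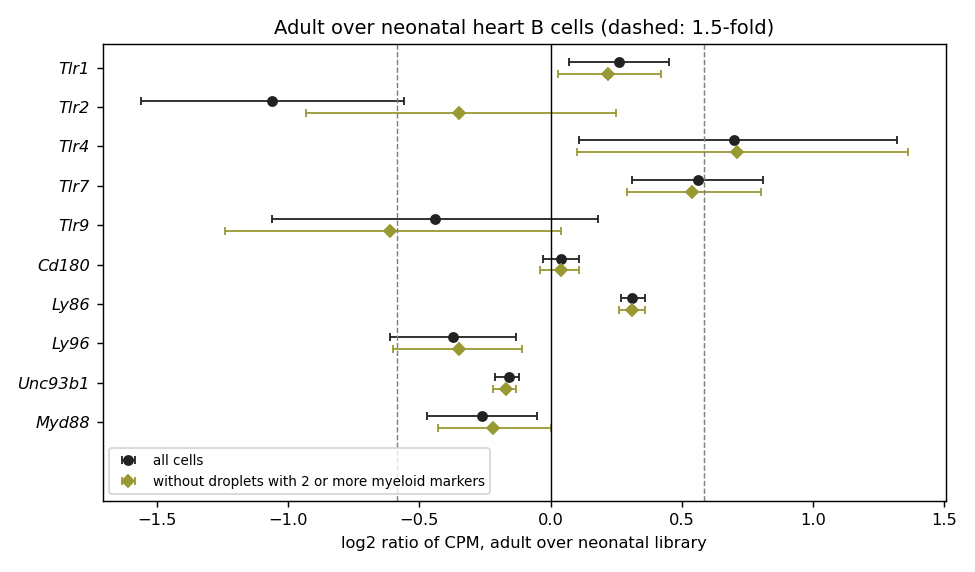
Log2 ratio of CPM, adult over neonatal library, of each member with its 95% interval for counting error, over all cells (circles) and without droplets with 2 or more myeloid markers (diamonds); dashed lines mark 1.5-fold. Tlr2 moves from -1.06 to -0.35 when those droplets are left out, and Tlr4 stays near 0.7.

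Tlr7 is X-linked, and the neonatal library mixed the sexes. Within it, 323 cells had Xist and no Y-linked UMI and 1279 had a Y-linked UMI and no Xist. Tlr7 had 17 UMIs (7.86 CPM) in the former and 123 UMIs (11.6 CPM) in the latter, a log2 ratio of -0.56 whose interval (-1.38 to 0.18) includes equal levels. With the neonatal library limited to cells with a Y-linked UMI and no Xist, the adult over neonatal ratio of Tlr7 was 0.50 (0.21 to 0.79) and that of Tlr2 was -1.0 (-1.57 to -0.42).

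The second question was whether the members differed in cells with UMIs of at least 3 of Bhlhe41, Zbtb32, Ctla4, Cd9, S100a6 and Nid1, genes linked to B1 and related B cells. There were 177 such cells in the neonatal library (8.52%, 7.36 to 9.81%) and 580 in the adult (16.1%, 14.9 to 17.3%). They were deeper than the other cells, with medians of 15881 against 5821.5 UMIs at 2 weeks and 16550 against 5150 UMIs at 8 weeks. Thinned to 2000 UMIs, 1.20% of neonatal and 1.86% of adult cells met the rule. Ly96 and Tlr7 were at least 1.5-fold higher in these cells in both libraries, and no member was 1.5-fold lower. That is 2 of 8 members tested in the neonatal library (Tlr4 and Tlr9 had fewer than 50 UMIs), where 9.42% of genes were higher and 13.2% lower, and 2 of 10 in the adult, where 7.00% were higher and 5.57% lower. A list of T cell markers held 6 genes, Cd3d, Cd3e, Cd3g, Cd2, Lck and Cd28. They summed to 559 CPM in the split and 448 CPM in the other neonatal cells, and to 280 and 220 CPM in the adult. As sequenced, cells with UMIs of 2 or more of these T cell markers made up 24.3% of the split and 3.84% of the other neonatal cells, and 26.7% and 5.18% of adult cells. These shares depend on depth, which was greater in the split cells, and were not computed on thinned cells. The list was not read gene by gene, so RNA of T cells cannot be told apart from listed genes that B cells express. The 6 neutrophil markers summed to 63.3 CPM in the split and 17.2 CPM in the other neonatal cells, and to 0 and 0.0456 CPM in the adult. Only 1 split and 1 other neonatal cell had UMIs of 2 or more of the neutrophil markers. The 8 macrophage markers summed to 122 and 82.2 CPM in the neonatal and 15.4 and 17.1 CPM in the adult library. The part of T cell markers in the ratios below was not tested; without the droplets with myeloid markers Ly96 was at 1.23 and 0.98 and Tlr7 at 0.67 and 0.72. Without the barcodes found in both libraries, 132 neonatal and 541 adult split cells remained, with Ly96 at 1.20 and 1.06 and Tlr7 at 0.66 and 0.78. Tlr2 then also passed 1.5-fold in the neonatal library, at 0.63 (-0.41 to 1.56). With all cells Tlr2 was at 0.46 (-0.39 to 1.25) in the neonatal and 0.03 (-0.73 to 0.76) in the adult library, and both intervals include equal levels. Over the alternatives other than a 5% mitochondrial limit, its neonatal ratio ranged from -0.75 to 1.55.

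Ly96 had 26.4 CPM (21.4 to 32.4) in these neonatal cells and 11.1 CPM (9.38 to 13.1) in the other neonatal cells, a log2 ratio of 1.25 (0.86 to 1.63). In the adult library it had 16.2 CPM (14.1 to 18.6) and 8.21 CPM (7.05 to 9.50), a ratio of 0.98 (0.69 to 1.28). The intervals of the levels did not overlap in either library. Over cells of at least 10000 UMIs, where the medians were 17200 and 12329 UMIs for neonatal and 17795 and 13547 for adult cells, the ratios were 1.02 (0.48 to 1.59) and 0.54 (0.19 to 0.91), and the adult value no longer passed 1.5-fold. With both cell and split taken at 2000 UMIs, 0 neonatal and 4 adult UMIs of Ly96 fell in the split cells, too few to give a ratio at that depth. Its receptor Tlr4 had 11 and 37 UMIs in the split cells, with ratios of 0.99 (-0.22 to 2.12) and -0.11 (-0.73 to 0.49).

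Tlr7 had 15.2 CPM (11.4 to 19.8) against 9.96 CPM (8.31 to 11.8) in the neonatal library, a log2 ratio of 0.61 (0.12 to 1.08), and 22.0 CPM (19.5 to 24.7) against 13.0 CPM (11.6 to 14.6) in the adult library, a ratio of 0.75 (0.51 to 1.0). In cells of at least 10000 UMIs the ratio was 0.46 in each library (-0.17 to 1.11 and 0.16 to 0.77), below 1.5-fold. Without cells with UMIs of at least 3 of 8 interferon-response genes, the ratio was 0.49 (-0.03 to 0.99) in neonatal cells, also below 1.5-fold, and 0.97 (0.67 to 1.26) in adult cells. With both limits it was 0.49 (-0.19 to 1.20) and 0.83 (0.45 to 1.23). Tlr9, the DNA receptor, had 5 UMIs in the neonatal and 22 in the adult split cells, too few to place it above or below the other cells. Unc93b1 was lower in the neonatal split cells, at a ratio of -0.30 (-0.40 to -0.21), and at 0.02 (-0.04 to 0.07) in the adult ones.

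Ly86 was higher in the split cells of both libraries, by 0.49 (0.40 to 0.57) and 0.17 (0.12 to 0.22). Cd180 was lower in the neonatal split cells, with 109 CPM against 137 CPM and a ratio of -0.33 (-0.49 to -0.17), and slightly higher in the adult ones, with 145 CPM against 129 CPM and a ratio of 0.17 (0.08 to 0.25). In cells of at least 10000 UMIs the adult difference was 0.08 (-0.02 to 0.19) and the neonatal one -0.35 (-0.55 to -0.14). Tlr1 was at -0.55 (-1.01 to -0.11) and -0.12 (-0.34 to 0.09), and Myd88 at 0.14 (-0.27 to 0.54) and -0.25 (-0.52 to 0.02).

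**Figure D3:**
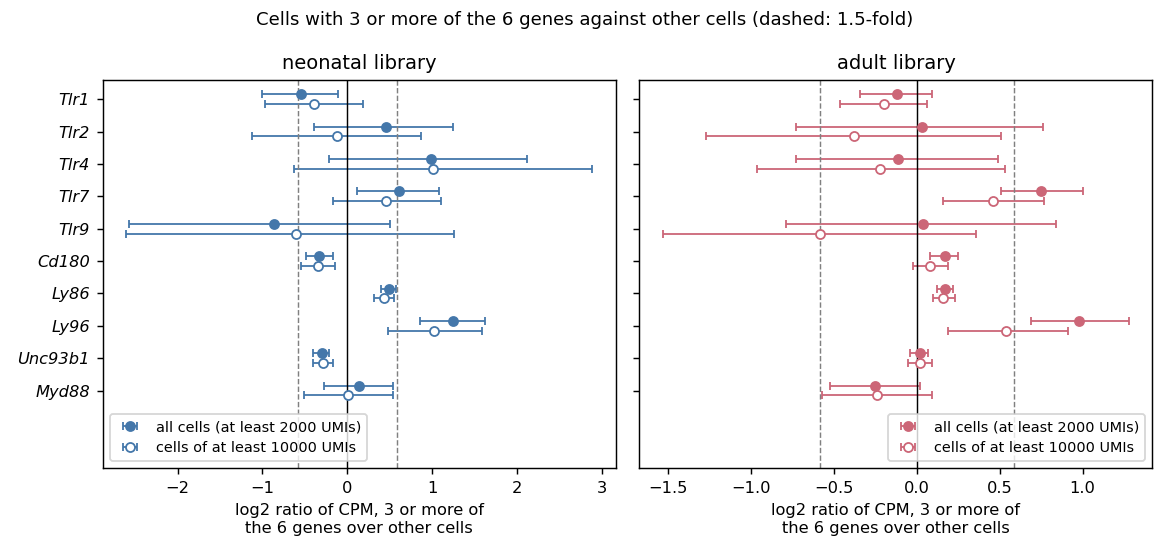
Log2 ratio of CPM, cells with 3 or more of the 6 genes over other cells, of each member in the neonatal (left) and adult (right) library, with 95% intervals for counting error; filled points are all cells, open points cells of at least 10000 UMIs, and dashed lines mark 1.5-fold. Ly96 lies right of 0 in both libraries at both depths, and Cd180 left of 0 in the neonatal library.

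Within the split cells the ages could also be compared. The adult over neonatal ratio of Ly96 was -0.70 (-1.06 to -0.34) in the split cells and -0.44 (-0.76 to -0.11) in the other cells. That of Cd180 was 0.40 (0.25 to 0.57) and -0.09 (-0.17 to -0.00). Tlr4 was at -0.09 (-1.09 to 1.03) and 1.02 (0.28 to 1.81), on 37 adult and 11 neonatal UMIs in the split cells. Tlr2 was at -1.38 (-2.29 to -0.45) and -0.96 (-1.57 to -0.34), on 26 adult and 19 neonatal split-cell UMIs. Tlr1 was at 0.63 (0.19 to 1.09) and 0.20 (-0.01 to 0.42). The remaining members were within 1.5-fold in the split cells. For these ratios the share of all genes past 1.5-fold was not computed. They were not taken at like depth or without shared barcodes.

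A further group was formed by cells with UMIs of at least 3 of 8 interferon-response genes (Ifit1, Ifit2, Ifit3, Isg15, Usp18, Rsad2, Oasl2 and Ifi44), of which 262 were adult and 13 neonatal. In the adult library Tlr7 had 29.8 CPM in these cells and 13.7 CPM in the others, a log2 ratio of 1.13 (0.86 to 1.39), and in cells of at least 10000 UMIs the ratio was 0.83 (0.52 to 1.12). In the 157 of them with fewer than 3 of the 6 genes above, it was 1.78 (1.39 to 2.16). The 13 neonatal cells held 12 Tlr7 UMIs, or 72.3 CPM against 10.5 CPM, a ratio of 2.79 (1.81 to 3.63). All 12 UMIs lay in the 6 of these cells with at least 10000 UMIs. The interval does not cover differences between so few cells. Among neonatal cells with fewer than 3 of the 6 genes, 10 interferon-response cells held 5 Tlr7 UMIs, a ratio of 2.64 (0.99 to 3.90). Those 5 UMIs lay in the 3 cells of at least 10000 UMIs. Tlr2 had 22 UMIs (3.88 CPM) in the adult interferon-response cells against 1.66 CPM, a ratio of 1.23 (0.43 to 1.98). In cells of at least 10000 UMIs it was 0.80 (-0.15 to 1.71), on 17 and 30 UMIs, an interval that includes equal levels. Tlr9 was at 0.93 (0.00 to 1.79) in the adult library, on 16 and 43 UMIs, and at 0.46 (-0.60 to 1.45) in those deeper cells. Ly86 was at 0.48 (0.42 to 0.54) in adult and 0.76 (0.45 to 1.06) in neonatal cells, and Myd88 at 0.26 (-0.07 to 0.58) in the adult. Cd180 had 138 and 134 CPM in the adult library, a ratio of 0.04 (-0.08 to 0.15). The median depth was 14664 UMIs in the adult interferon-response cells and 5637 in the others. For this adult contrast the share of all genes past 1.5-fold was not computed, and the median log2 ratio over 10153 genes was -0.01.

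Tlr3, an endosomal receptor for double-stranded RNA that signals through TRIF rather than MyD88, showed the widest gap of the receptors in this contrast. It had 95 UMIs (16.8 CPM) in the 262 adult interferon-response cells and 32 UMIs (1.11 CPM) in the 3349 others, a ratio of 3.92 (3.33 to 4.55), and 3.70 (2.93 to 4.56) in cells of at least 10000 UMIs. The 13 neonatal cells held 0 UMIs of Tlr3, too few cells to set against the adult value, since the interval of their ratio reached 5.84. Over whole libraries Tlr3 had 8 UMIs in neonatal and 127 in adult cells, a ratio of 2.91 (1.89 to 4.15). Outside the interferon-response cells it had 0.493 CPM (8 UMIs) in neonatal and 1.11 CPM (32 UMIs) in adult cells. Irf7, the interferon regulatory factor downstream of TLR7 and TLR9 and itself induced by interferon, was at 2.22 (2.06 to 2.38) in the adult interferon-response cells and at 0.79 (0.62 to 0.97) between the ages. Outside the interferon-response cells Irf7 had 19.4 CPM in neonatal and 23.1 CPM in adult cells.

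**Figure D4:**
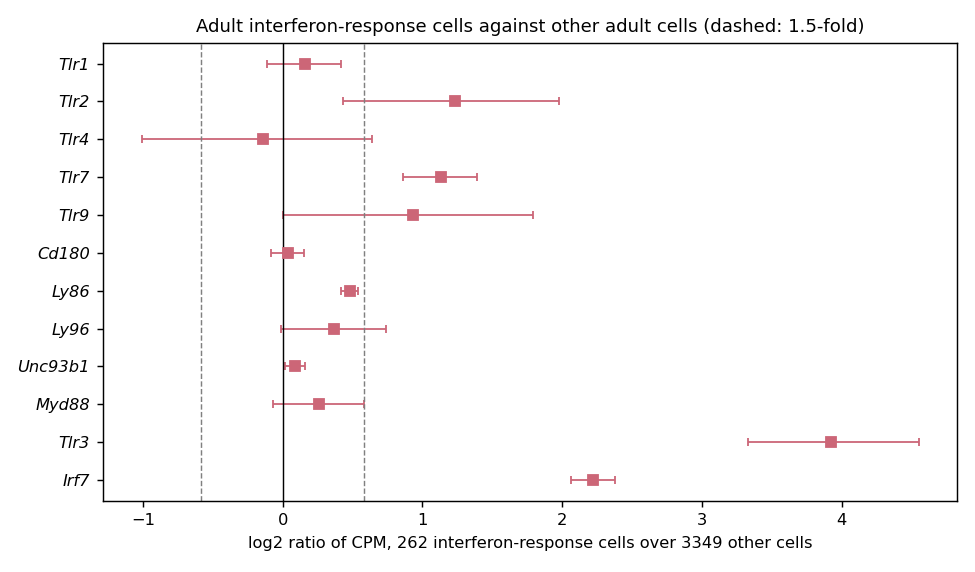
Log2 ratio of CPM, 262 adult interferon-response cells over 3349 other adult cells, of the 10 members and of Tlr3 and Irf7, with 95% intervals for counting error; dashed lines mark 1.5-fold. Tlr3 (3.92), Irf7 (2.22), Tlr2 (1.23), Tlr7 (1.13) and Tlr9 (0.93) lie right of the upper dashed line, and Cd180 lies at 0.04. The interferon-response cells were deeper, and in cells of at least 10000 UMIs the intervals of Tlr2 and Tlr9 include equal levels. The share of all genes past 1.5-fold was not computed.

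In cycling cells, those with UMIs of at least 2 of Mki67, Top2a, Birc5, Cdk1, Ccnb2 and Nusap1, Ly96 was at 0.79 (0.11 to 1.42) over the 32 neonatal cells and 0.73 over the 74 adult cells (0.23 to 1.20). Tlr1 was at -1.47 (-2.80 to -0.41), on 7 UMIs in the neonatal cycling cells, and at -0.58 in the adult. Cd180 was at -0.68 (-1.02 to -0.36) in neonatal and 0.09 in adult cells, and Unc93b1 at -0.46 (-0.65 to -0.28) and -0.09. The cycling cells were also deep, with medians of 27279.5 and 26213.5 UMIs against 5966 and 5993 in the other cells. Their ratios were not taken at like depth, and the share of all genes past 1.5-fold was not computed.

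The share of thinned cells with a partner was compared between cells with and without the first gene of a pair, and its intervals overlapped for Cd180 with Ly86 and for Tlr7 with Unc93b1. Ly86 was present in 44.8% of neonatal cells with Cd180 (40.2 to 49.5%) and 42.7% of those without (40.2 to 45.1%), and in 51.4% (47.8 to 55.1%) and 52.2% (50.4 to 54.0%) of adult cells. Unc93b1 was present in 58.1% of neonatal cells with Tlr7 (42.1 to 73.0%) against 52.3% of those without (50.1 to 54.5%), and in 52.2% (41.4 to 62.9%) against 45.4% (43.7 to 47.0%) of adult cells. No thinned cell held Tlr1 together with Tlr2, of 79 neonatal and 157 adult cells with Tlr1, which allows a share of up to 4.56% and 2.32%. Tlr2 was present in 0.701% and 0.261% of cells without Tlr1, inside those limits, so these counts cannot tell cells with and without Tlr1 apart. Tlr4 and Ly96 met in 0 of 8 neonatal and 2 of 25 adult cells with Tlr4. Ly96 was present in 2.61% and 1.37% of cells without Tlr4, and the intervals overlapped in each library.

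The other genes of the pathway were taken from 4 lists, whose counts stand against 7.82% of all tested genes higher and 12.2% lower in adult cells. Of 7 further receptors, Tlr3 and Tlr6 had at least 50 UMIs over both libraries; Tlr6, a second partner of TLR2, had 1.65 CPM at each age, Tlr5 had 0 UMIs in both libraries, and Tlr13 had 11 UMIs in neonatal and 0 in adult cells. Of 10 tested genes that fold, carry or process the receptors or their ligands, 0 were higher and 5 lower in adult cells: Cd14 (-3.02), Cd36 (-1.10), Slc15a4 (-0.76), Lgmn (-0.68) and Ctsl (-0.63). Each of the 46 neonatal Cd14 UMIs lay in the droplets with myeloid markers. Slc15a4, an endosomal transporter needed for TLR7 and TLR9 signaling, had 63.5 CPM in neonatal and 37.6 CPM in adult cells, and Lgmn and Ctsl encode proteases that can cleave endosomal receptors. The chaperone Hsp90b1, which folds most Toll-like receptors, was at 0.21, and Ctss at 0.40. Of 20 signaling genes, 1 was higher (Irf7) and 2 lower, the kinase scaffold Tab2 (-0.66) and the adaptor Ticam2 (-0.78). Of 6 tested genes that restrain signaling, 0 passed in either direction. Scaling by the median of ratios, which shifts every ratio up by 0.16, would bring Lgmn, Ctsl and Tab2 inside 1.5-fold. The ratios of these 4 lists were not computed without the droplets with myeloid markers.

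Between split and other cells, the adaptor of TLR3 and TLR4, Ticam1, was at 1.23 (0.38 to 2.04) in the neonatal and 1.13 (0.64 to 1.62) in the adult library, and its bridge to TLR4, Ticam2, at 1.28 in the adult library, where it was tested. Cd36, a scavenger receptor that assists TLR2, was at 0.74 and 0.86. Pik3ap1, an adaptor between B cell and Toll-like receptor signals and PI3K, was at -1.40 and -0.62, and Irak3, a kinase-like inhibitor of MyD88 signaling, at -0.93 and -0.64. Irf7 was at -1.27 and -0.54, Ikbkb at -0.82 and -0.24, Chuk at -0.59 and -0.40, Socs1, an inhibitor of cytokine signaling, at 1.44 and 0.14, and Ctsl at -0.46 and -1.57. Among all tested genes 9.42% were higher and 13.2% lower in the neonatal split cells, and 7.00% and 5.57% in the adult ones. Of the signaling list, 1 of 19 tested genes was higher and 4 lower in the neonatal library, and 2 of 20 higher and 2 lower in the adult. The 2 lower in the adult were Pik3ap1 and Tab1, the latter at -0.61 (-1.15 to -0.09) and at -0.38 in the neonatal library. Irf7, Ikbkb and Chuk passed 1.5-fold in the neonatal library only. Of the folding and processing list, 1 of 9 was higher and 0 lower in the neonatal library, and 1 of 9 higher and 1 lower in the adult. Of the 6 restraint genes tested, 1 was higher and 1 lower in the neonatal library, and 0 were higher and 1 lower in the adult. The split cells were deeper, and of the genes named here only Irf7 was also taken over cells of at least 10000 UMIs. It was then at -1.32 (-1.93 to -0.73) and -0.74 (-0.94 to -0.53). These ratios were not computed without the droplets with myeloid markers.

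The genes whose levels over the 4 groups of library and split were closest to a member, by the Euclidean distance of centred log2 CPM among 9161 genes, were Glipr1, Asph and Rps12-ps3 for Tlr7 (0.0544 to 0.0995). For Tlr2 they were Noct, Slc35c1 and Lrrc8a, for Tlr1 Pcgf5, 2010007H06Rik and Fyco1, and for Cd180 Malsu1, Opa3 and Pde6d. For Unc93b1 they were Prr14l, Snx15 and Klhl5, and for Myd88 Akap10, Tex264 and Ext1. With 4 groups many genes lie near a flat profile: 977 genes were within a distance of 0.2 of Unc93b1, against 11 for Tlr7.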

How the data were processed

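Heart B cells of 1 neonatal and 1 adult library were analysed. The authors deposited unnormalized counts of UMIs for each gene in each droplet, from Chromium 3′ v3 libraries aligned to mm10 with Cell Ranger (3.0.2 in the file headers, a later version in the study's methods), with no filter on droplets. The annotation used for counting is not given in the sources used here; 99.6% of the identifiers were found in GENCODE M21. The rows for the 3 antibodies were nearly empty and were not used.

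Members and gene lists were chosen with earlier results of these data known. Cells were selected by 2000 UMIs, 10% mitochondrial UMIs and Cd79a; no doublet caller was run, so doublets remain. Counts were summed per group and divided by the group total (Python 3.11.15 with scipy 1.17.1, numpy 2.4.6, matplotlib 3.10.9 and pandas 2.3.3). With 1 library per age no p-value was computed. Intervals of 95% cover counting error only. The size rule was 1.5-fold on genes with at least 50 UMIs. Named genes were the members, list genes past that fold or with most UMIs, and the 3 nearest in profile; those nearest to Ly86 and Ly96 are not reported here. The interval code was tested on simulated data. Alternatives varied the filters, scaling, depth, split, sex, myeloid-marker droplets and interferon-response cells; the last of these, the droplets by Lyz2, Csf1r, C1qa or C1qb, and the limit of 10000 UMIs were added after the data were seen.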

Additional observations from a re-analysis of the deposited data

Results flagged for a closer look

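The 14 neonatal droplets without a Cd79a UMI, which the comparisons leave out, held 11 UMIs of Tlr2, or 101 CPM (50.5 to 181), against 4.21 CPM in the cells. They held 7 UMIs of Myd88, or 64.4 CPM (25.9 to 133), against 18.0 CPM. The 11 and 7 UMIs lay in 7 droplets with 2 or more myeloid markers. The 4 adult droplets without Cd79a held 0 UMIs of each member.

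Cd180 stood in opposite directions in the split of the libraries, with log2 ratios of -0.33 in neonatal and 0.17 in adult cells and neither interval including 0. In cells of at least 10000 UMIs the ratios were -0.35 (-0.55 to -0.14) and 0.08 (-0.02 to 0.19), and the adult interval includes 0. The difference between the libraries was not tested, since there was 1 library per age.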

How the results depend on the processing

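Limits on the values come from depth: Tlr2, Tlr4 and Tlr9 had 31 to 106 UMIs per library, and 5 to 37 UMIs in the split cells of a library. No paired analysis was possible because the result comes from no test and each age has 1 library.

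Of 488 log2 ratios of single members under 18 alternatives, 426 lay within the interval of the reported value, 59 outside it and 3 called values reversed. The cause of each change below was not tested, except that the 5% mitochondrial limit kept 60 neonatal and 156 adult cells, so that 3 members had 50 UMIs. Under it the ratio of Tlr4 between the ages was -0.84 and that of Tlr7 in the neonatal split -0.78; 0 members were higher and 0 lower in adult cells, 1 was higher (Ly86) and 1 lower (Cd180) in the neonatal split, and 0 were higher in the adult split. With cells thinned to 2000 UMIs, 0 members were higher in adult cells and 1 was lower, but Ly96 (-0.93) in place of Tlr2. Tlr2 then had 9 adult and 14 neonatal UMIs and Tlr4 had 25 and 8, so both fell below the 50 UMIs that the rule requires. Over the alternatives other than the 5% mitochondrial limit, the ratio of Tlr4 between the ages ranged from 0.34 to 0.95. In the neonatal split of 25 cells 0 were higher and 2 lower (Tlr1, Ly96), both with 0 UMIs in those cells, so that no level can be read, and 1 higher (Ly96, on 4 UMIs) and 1 lower (Tlr7, -0.84, on 1 UMI) in the adult split of 67 cells.

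The count higher in adult cells, 1 as reported, was 2 with median-of-ratios scaling and 2 without the 5% of droplets with most UMIs (Tlr4 and Tlr7), and 0 in cells of at least 10000 UMIs. The count lower in adult cells, also 1, was 3 with means over cells (Tlr2, Tlr9, Ly96), 2 without the 5% of deepest droplets (Tlr2, Tlr9) and 0 without droplets with a Lyz2, Csf1r, C1qa or C1qb UMI. Without droplets with 2 or more myeloid markers it was 1, but Tlr9 in place of Tlr2. Without interferon-response cells, 2 members were lower in adult cells (Tlr2, Tlr9), and 1 was higher (Ly96) and 1 lower (Tlr1) in the neonatal split. The 2 members higher in the neonatal split became 1 (Ly96) with a minimum of 4000 UMIs, without the 5% of deepest droplets and in cells of at least 10000 UMIs, where the adult split had 0. Tlr1 was 1 member lower in the neonatal split without either set of myeloid droplets and with a split at 4 of 6 genes.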
